A study of Mus musculus with 15 samples.

Results

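The comparison set the last day on which cells of the newborn mouse kidney sorted for the Crym-EGFP reporter were labelled cap mesenchyme, postnatal day 3 (P3), against the first, the day of birth (P0). It rests on 6 of the 15 samples of the series, 3 pools of each day, with the 6 pools of P1 and P2 entering the estimate of the spread and the filter on dim genes. All animals were CD-1 mice that carried the Tg(Crym-EGFP)82Gsat transgene, and they were of unknown sex. The reporter is a bacterial artificial chromosome in which Crym sequence drives green fluorescent protein. Each pool held approximately 4 kidneys, which were digested with trypsin and sorted by fluorescence, and neonatal pups had been fostered to CD-1 females. The sources used here do not give the gate, and whether the sort set part of the level of Crym itself was not tested. Pools of P4, labelled renal vesicle, are given only as levels. The mean level of the 29 genes of a cap mesenchyme list with a probe set was between 8.96 and 9.44 in the P0 pools. It was between 8.57 and 8.68 in the P3 pools, with array medians between 6.80 and 6.92. The P4 pools, at 7.93 to 8.11, also lay above these medians. A list of renal vesicle genes had means between 7.37 and 7.76 in the P0 pools and between 8.35 and 8.94 in the P3 pools. These levels therefore do not settle the label of the P3 pools.

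The cap mesenchyme is the population of nephron progenitors around the tips of the ureteric bud. It renews itself under Six2 and under Fgf and Wnt signals, and part of it leaves this state, aggregates, and turns into the renal vesicle, the first epithelium of the nephron, under Wnt4, Fgf8 and Notch signals. In the mouse the last progenitors are used up within a few days of birth, and no nephrons form after that. The question was which genes of the sorted cells changed over the days in which this happens.

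Expression was measured on whole-transcript arrays, and all values are the deposited log2 values, so that a difference of 1 is 2-fold. The first replicates stood apart from the rest. The interquartile range over genes was 1.91 and 1.96 in the first replicates of P0 and P3 and between 2.14 and 2.545 in the other 4 pools. Same-numbered pools deviated together, and the test took the replicate number as a block. Replicates 2 and 3 of different days mostly deviated together as well, so the values do not show that these numbers pair the pools. The spread of the differences between P3 and P0 over all genes was widest in the third pair (SD 0.46, against 0.31 and 0.34 in the first and second). Xist, the RNA of the inactive X chromosome, was at 5.24 in P0 replicate 1 and at 9.83 or more in the other 5 pools, so the pools differed in their mix of sexes. Whether pools of the same day shared a litter is not stated, so p-values speak only of these pools. They measure the spread left after the replicate block, pooled over P0 to P3, which may in part be technical. Deviations that same-numbered pools share are not counted in that spread. At a limma adjusted p under 0.05, 705 genes were called with the block and 200 without it.

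Of 11617 genes tested, 705 (6.07%) differed between P3 and P0 at an adjusted p under 0.05 in limma. At P3, 319 genes (2.75%) were higher and 386 (3.32%) were lower, and these shares are the background for the count of every gene list. Among them 74 (0.637% of those tested) rose and 76 (0.654%) fell by 2-fold or more. The direction was the same in all 3 same-numbered pairs for 704 of the 705 genes. Calling them in a fit blocked by that number largely brings this about, so it is no separate support. The 3 P3 pools lay wholly above the 3 P0 pools for 595 genes (5.12% of those tested) and wholly below them for 732 (6.3%), and 269 of the genes called higher and 298 of those called lower were among these. With replicates 2 and 3 alone 328 genes were called, of which 302 were also called with all pools. In the first replicates, which that fit did not use, 96.3% of the 328 moved in the same direction, against 56.8% of all genes. These fits share pools, and most of all genes were not called, so both numbers are descriptions and not tests.

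The step between P2 and P3 was most often the largest, more clearly among the genes called higher than among those called lower. Of the genes called higher, 201 made their largest step between P2 and P3, 99 between P1 and P2 and 19 between P0 and P1. Of those called lower, the numbers were 213, 112 and 61. Medians over the genes called higher were 0.01 above P0 at P1, 0.27 at P2 and 0.68 at P3, with 0.67 at P4. For the genes called lower they were -0.12, -0.34, -0.67 and -0.66. These genes were chosen on the P3 values, so the sequence is a description. No detection calls were used, and a level under 6.86, the value of the filter on dim genes, is not shown to be above background. Folds against such a level are differences of deposited values only. Among the named genes that passed this holds at P0 for Papss2, Hey2, Ap1s2, Cnksr2, Osr2, Plce1, Nrarp, Marveld2, Smad9 and Epcam and at P3 for Ocm, Tsga13, Traf1, Zim1, Mir335, Cdc42ep3, Postn, Dcn, Pdk1, Egln3 and Car9.

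**Figure D1:**
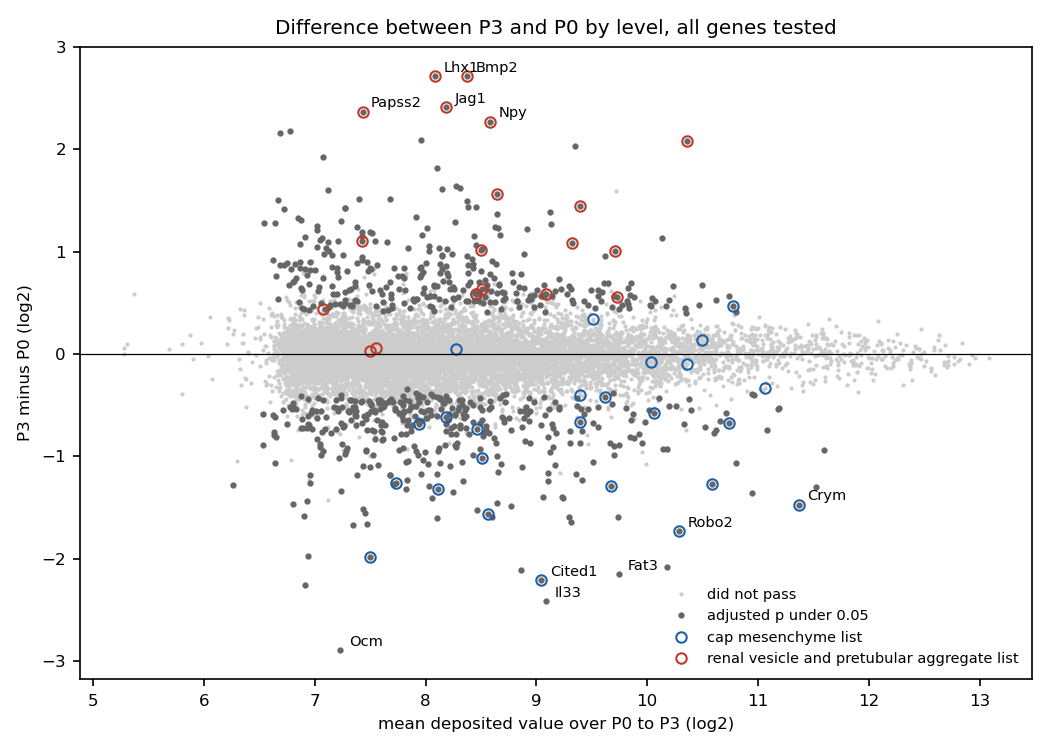
Difference between P3 and P0 (vertical axis, log2) against the mean deposited value over P0 to P3 (horizontal axis, log2) for the 11617 genes tested, with the 705 that passed in dark grey and rings for members of the cap mesenchyme (blue) and renal vesicle (red) lists. Lhx1 and Bmp2 lie highest at 2.72 each, Ocm lies lowest at -2.90, and most blue rings lie below 0 while all red rings lie above it.

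Most tested genes of the progenitor state were lower at P3. Of the 30 genes of the cap mesenchyme list 26 passed the filter on dim genes, 17 of these fell and 2 rose, and the list had a median difference of -0.67, against -0.02 over all genes tested. The list was written with earlier results of these data known, as were all lists here, and none is independent evidence of its direction. Six2, the transcription factor that keeps progenitors from differentiating, was at 10.72, 11.17 and 11.13 in the P0 pools and at 9.93, 9.76 and 9.49 in the P3 pools. All P3 pools lay below all P0 pools, and Six2 fell 2.42-fold (log2 difference -1.28, SE 0.16, limma adjusted p = 0.000425). Cited1, a transcriptional coactivator found in the least committed progenitors, stood at 8.73, 10.19 and 10.24 at P0 and at 7.83, 7.54 and 7.14 at P3. It fell 4.63-fold (-2.21, SE 0.33, adjusted p = 0.00184), and in the first pair, where the P0 value was low, by less than in the other pairs. Crym, the source of the reporter, encodes mu-crystallin, which binds thyroid hormone, and read 11.70, 11.87 and 12.15 at P0 and 10.55, 10.51 and 10.24 at P3. The groups did not overlap, and Crym fell 2.77-fold (-1.47, SE 0.15, adjusted p = 0.000132).

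Several regulators and signals of the same cells fell with them. The homeobox gene Meox2 read 8.69, 9.34 and 9.38 at P0 and 7.49, 7.69 and 7.55 at P3, a fall of 2.95-fold (adjusted p = 3.52e-05). Robo2, a receptor for Slit proteins that restrains Gdnf in the nephrogenic mesenchyme, read 10.83, 10.89 and 10.98 at P0 and 9.51, 8.97 and 9.03 at P3. It fell 3.32-fold (SE 0.13 on the log2 scale, adjusted p = 2.53e-05). Rspo3, a secreted protein that strengthens Wnt signals, fell 2.50-fold and Phf19, a Polycomb accessory protein, 2.39-fold, with no overlap of the groups in either. Traf1, a signal adaptor of the tumour necrosis factor receptor family, read 6.97, 8.97 and 8.30 at P0 and 5.90, 6.05 and 6.35 at P3 and fell by 1.98 on the log2 scale (SE 0.24). Eya1, the cofactor of Six2, went from 10.97 ± 0.25 (SD, n = 3) to 10.29 ± 0.14, a fall of 0.68 on the log2 scale (SE 0.10, adjusted p = 0.00189). It was the smallest change among these regulators, and Eya1 was at 8.68 ± 0.45 at P4.

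Not all genes of the list moved this way. Sall1, named after its value was seen, is a zinc finger factor of progenitors and differed by -0.10 (SE 0.10, adjusted p = 0.665), and Wt1 by 0.14. The members that passed in the other direction were Pax2, which stays on in the epithelium that progenitors form (0.46), and Tmem100 (0.59), which is also in the renal vesicle list. The call of Tmem100 ended on leaving out any of 8 pools (P0 replicates 1 and 3, P1 replicate 1, each P2 pool, P3 replicates 1 and 2), with adjusted p up to 0.206. That of Pax2 ended on leaving out any of 10 (each P0 pool, P1 replicates 1 and 2, each P2 pool, P3 replicates 1 and 3), with adjusted p up to 0.201. In such bulk samples, fewer cells of a type and less RNA per cell cannot be told apart.

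Most tested genes of the renal vesicle and of the aggregate that precedes it were higher at P3. Of 27 members 19 were tested, 16 rose and none fell, with a median difference of 1.09, and 2.75% of all genes rose. All 19 had a difference above 0. Lhx1, a homeobox gene that the renal vesicle needs, read 6.56, 7.52 and 7.33 at P0 and 8.99, 10.26 and 10.32 at P3. Every P3 pool lay above every P0 pool by more than 1 unit, and Lhx1 rose 6.59-fold (2.72, SE 0.15, limma adjusted p = 2.72e-06). Jag1, the Notch ligand of the forming nephron, read 6.81, 7.49 and 7.60 at P0 and 9.53, 10.12 and 9.50 at P3, a rise of 5.33-fold (adjusted p = 3.34e-05). Bmp2, a bone morphogenetic protein, read 7.32, 7.73 and 6.89 at P0 and 10.10, 10.00 and 10.01 at P3. The P3 pools lay closer together than the P0 pools, and Bmp2 rose 6.58-fold (SE 0.16 on the log2 scale, adjusted p = 2.72e-06).

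Wnt4, which starts the change from mesenchyme to epithelium, read 8.28, 7.91 and 8.16 at P0 and 8.77, 9.29 and 9.35 at P3. Wnt4 rose 2.03-fold (adjusted p = 0.0023), less than Lhx1, Jag1 and Bmp2 did. Ccnd1, cyclin D1, read 8.77, 9.96 and 9.85 at P0 and 10.99, 11.78 and 12.06 at P3 and rose 4.24-fold (SE 0.13 on the log2 scale). Papss2, an enzyme that makes the sulfate donor of the cell, rose 5.17-fold and the neuropeptide Npy 4.83-fold. The transcription factor Pax8 went from 8.79 ± 0.47 (SD) to 10.24 ± 0.63, a rise of 1.44 on the log2 scale that was close to even over the pairs (SE 0.12, adjusted p = 3.52e-05). Cdh6, a cadherin of early tubules, rose by 1.57 and the transcript of C1qtnf12 by 1.00, both named after their values were seen. The other 3 of the 19 did not pass, Fgf8 (0.03), Dkk1 (0.06) and Dll1 (0.44), also named after their values were seen.

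**Figure D2:**
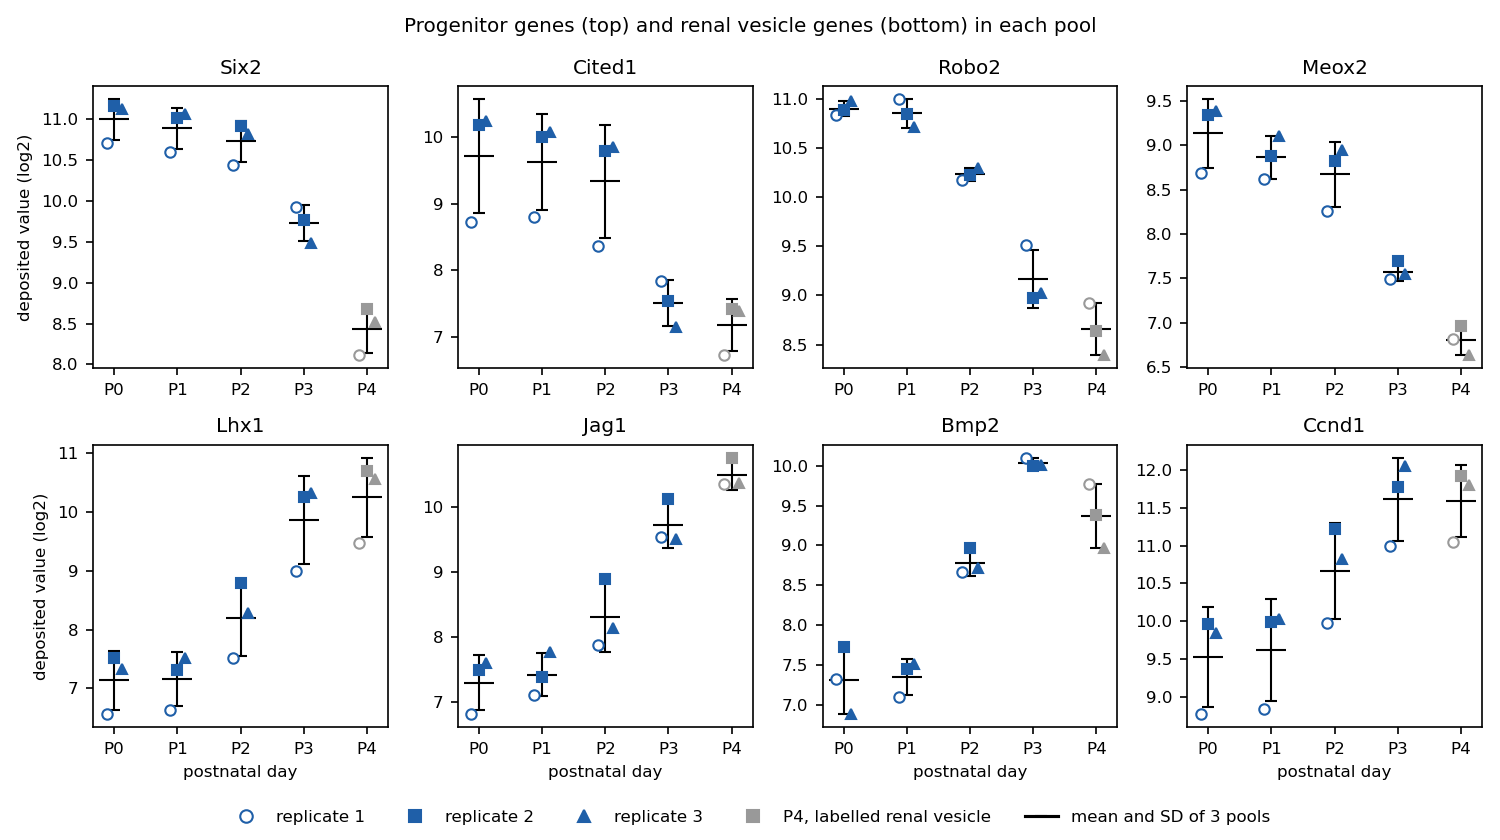
Deposited log2 values (vertical axes, each with its own scale) of 4 progenitor genes (top) and 4 renal vesicle genes (bottom) in each of the 15 pools by postnatal day (horizontal axes), with open circles, squares and triangles for replicates 1, 2 and 3, grey for P4, and black lines and bars for the mean and SD of 3 pools. Six2 is at a mean of 10.73 at P2 and 9.73 at P3, whereas Lhx1 is at 8.20 and 9.86 on these days.

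Day by day, Six2 and Cited1 held near their P0 levels up to P2, whereas Robo2 and Rspo3 were lower by then. Six2 was at 10.89 at P1 and 10.73 at P2, Cited1 at 9.63 and 9.33, and each took its largest step between P2 and P3. Robo2 was at 10.85 at P1 and 10.23 at P2, and Rspo3 stood at 8.68 at P1 and had reached 7.51 at P2, close to its P3 mean of 7.48. The P2 means of the renal vesicle genes lay between those of P1 and P3. Bmp2 was at 7.36 at P1 and 8.79 at P2, Ccnd1 at 9.62 and 10.67, and Lhx1 at 7.16 and 8.20. At P4, Six2 (8.44) and Crym (7.80) lay further below P3, while Lhx1 (10.25) lay near its P3 mean of 9.86 and Bmp2 (9.37) below its P3 mean of 10.03.

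Notch signals, passed between neighbouring cells by Jag and Dll ligands, set up the proximal parts of the nephron. Of 18 tested Notch pathway genes 6 rose and 1 fell, against 2.75% and 3.32% of all genes, with a median of 0.16. Beside the ligand Jag1, the target Hey2 read 5.93, 6.24 and 6.22 at P0 and 7.19, 8.02 and 9.73 at P3. The 3 P3 pools were spread over more than 2 units, and Hey2 rose by 2.18 (SE 0.35, limma adjusted p = 0.00248). The target Hey1 read 8.32, 9.38 and 9.07 at P0 and 9.58, 10.27 and 10.18 at P3 and rose by 1.09 (SE 0.13). Nrarp, a feedback inhibitor that Notch induces, read 6.37, 6.36 and 6.71 at P0 and 7.15, 7.75 and 7.98 at P3 and rose 2.21-fold. The receptors Notch1 (0.74, adjusted p = 0.0048) and Notch2 (0.61, adjusted p = 0.00664), named after their values were seen, completed the 6. Hes1, another target, differed by -0.27 and did not pass, and Hes5 by 0.03. The member that fell was Adam10, a protease that cuts Notch (-0.87, adjusted p = 0.00962), a call that ended without P0 replicate 3 (adjusted p = 0.0517).

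Wnt ligands and targets went both ways. Of 17 tested, 6 rose and 3 fell, against 2.75% and 3.32% of all genes, with a median of 0.28. The transcription factor Lef1, both an effector and a target of beta-catenin, read 6.99, 7.08 and 7.20 at P0 and 7.66, 8.71 and 8.22 at P3 and rose 2.15-fold (adjusted p = 0.00127). Sfrp2, a secreted modulator of Wnt ligands, rose 2.41-fold (SE 0.12 on the log2 scale), and Sp5 (0.67) and the receptor Fzd7 (0.57), both named after their values were seen, rose beside Wnt4 and Ccnd1. The target Axin2 differed by -0.12 and did not pass. The members that fell were Rspo3, Rspo1 (-0.67) and Myc (-0.55). Without P0 replicate 3 or without P3 replicate 2 only 1 of them passed. The call of Rspo1 ended without P0 replicate 3, P3 replicate 2 or P3 replicate 3 (adjusted p up to 0.111), and that of Myc without any of 9 pools (each P0 pool, P1 replicates 1 and 2, P2 replicates 1 and 2, P3 replicates 1 and 2), with adjusted p up to 0.187. Motifs were sought on either strand in the 250 bases before the start. The letters CTTTGAA or CTTTGAT were found in 1 of the 5 higher Wnt genes with a promoter sequence. GTGGGAA was found in 1 of 5 higher Notch genes, and CCGGAAG in 0 of 3 lower FGF genes. The shares of all genes with a promoter sequence were 8.63%, 6.18% and 7.83%.

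Among BMP genes 5 of 20 rose and none fell, against 2.75% and 3.32% of all genes, with a median of 0.39. Bmp4 read 7.27, 8.13 and 7.86 at P0 and 8.84, 9.58 and 9.73 at P3, with no overlap, and rose 3.09-fold (SE 0.14 on the log2 scale, limma adjusted p = 4.83e-05). Bmp7, a survival signal of progenitors, differed by -0.19 and did not pass. The remaining members higher at P3 were Bmper, a BMP binding protein (0.58), Id3, an inhibitor of differentiation induced by BMP (0.60), and Smad9 (0.44), the last named after its value was seen. Without P0 replicate 1 or 2 or P3 replicate 1 or 2 the number of BMP genes that rose was 3. Smad9 lost its call without any of 11 pools, all but P0 replicate 3 (adjusted p up to 0.184). The call of Bmper ended without P0 replicate 2 or 3 or P3 replicate 2 (adjusted p up to 0.0782), and that of Id3 without P0 replicate 1 or 2 or P3 replicate 1 or 3 (up to 0.113).

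Genes of FGF and ERK signals were lower in 5 of 19 and higher in 1, against 3.32% and 2.75% of all genes, with a median of -0.01. These signals keep progenitors alive, and the list held ligands as well as genes that answer them. The ETS factor Etv1 read 9.46, 9.71 and 9.35 at P0 and 8.91, 8.12 and 7.77 at P3, did not overlap, and fell 2.36-fold (adjusted p = 0.00272). Gdnf, the signal from the cap mesenchyme that makes the ureteric bud branch, read 8.64, 8.79 and 8.71 at P0 and 8.10, 7.99 and 7.85 at P3 (-0.73, SE 0.14, adjusted p = 0.00771). Dusp6, a phosphatase of ERK, was lower by 0.60 in the fit (adjusted p = 0.0154) but its groups overlapped. The other members lower at P3, named after their values were seen, were the feedback inhibitor Spry4 (-0.69) and the ligand Fgf20 (-0.69). Il17rd, an inhibitor of FGF receptors, was the member that rose (0.56, adjusted p = 0.0156). Without P0 replicate 3 only Etv1 of the 5 passed, with Gdnf at an adjusted p of 0.0531, Dusp6 at 0.0928 and Il17rd at 0.0928. The call of Il17rd also ended without P0 replicate 1, that of Spry4 without P0 replicate 2 or P3 replicate 2 (up to 0.094), and that of Fgf20 without P0 replicate 1 or P3 replicate 1 (up to 0.108). Fgf9, Etv4 and Etv5 differed by -0.01, 0.00 and -0.16 and did not pass.

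**Figure D3:**
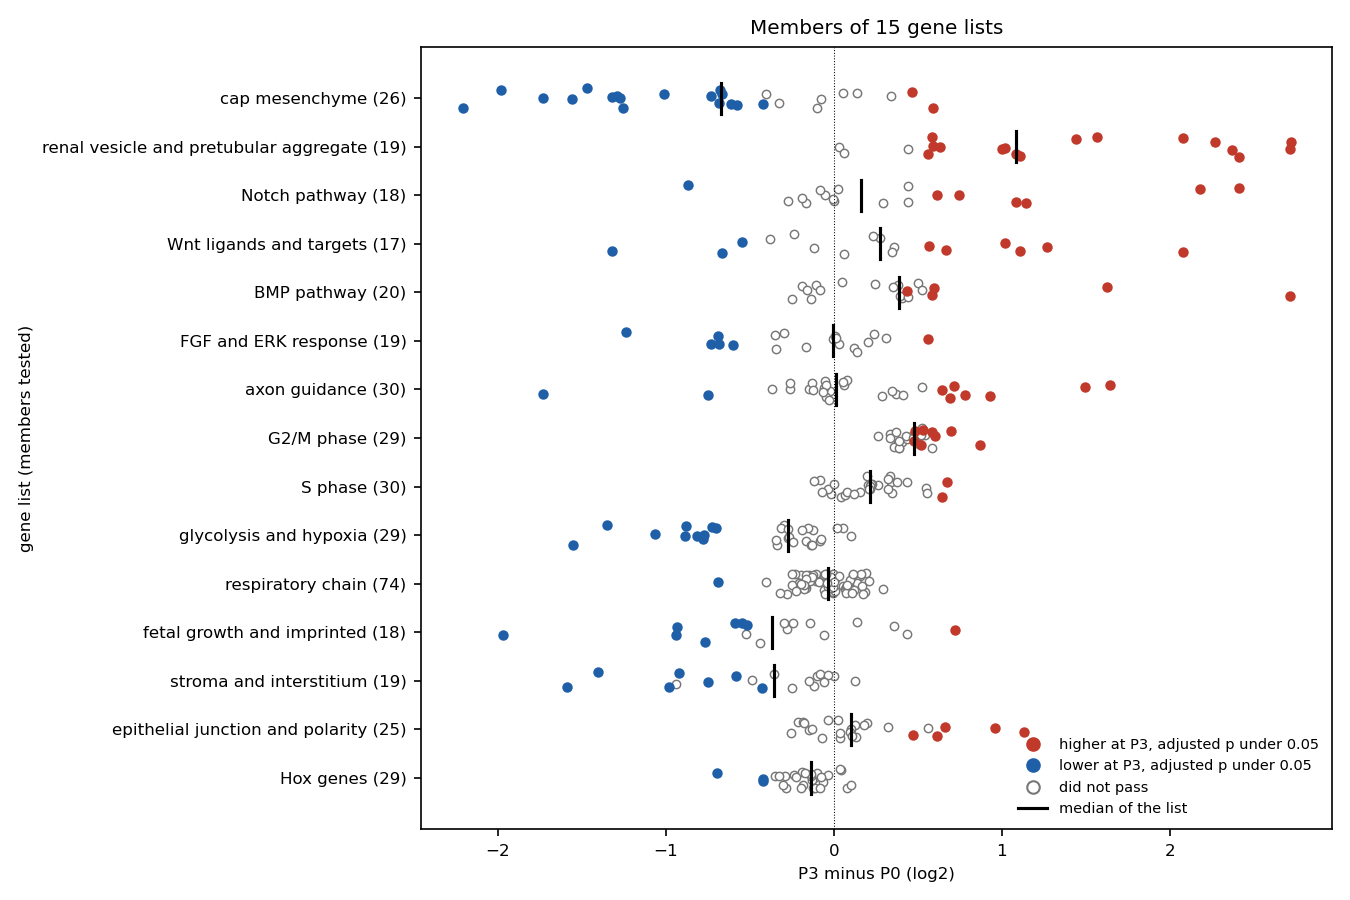
Difference between P3 and P0 (horizontal axis, log2) of each tested member of 15 gene lists (vertical axis, with the number tested), with members that passed in red (higher) or blue (lower), the others open, and the median of each list as a black line. The cap mesenchyme list has its median at -0.67 and the renal vesicle list at 1.09, all 29 G2/M genes lie above 0, and the 74 respiratory chain genes lie close to 0.

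The 29 tested genes of the G2 and M phases of the cell cycle all had a difference above 0, with a median of 0.48, and 8 of them rose and none fell, against 2.75% and 3.32% of all genes. Kif14, a motor protein of cytokinesis, read 8.21, 8.45 and 8.09 at P0 and 9.15, 9.36 and 8.86 at P3, with no overlap, and rose 1.83-fold (0.87, SE 0.11, limma adjusted p = 0.000414). Bub1b, a kinase of the spindle checkpoint, read 9.48, 9.79 and 9.59 at P0 and 10.12, 10.32 and 10.50 at P3 and rose by 0.70 (SE 0.13, adjusted p = 0.00579). The exchange factor Ect2 (0.60) and the spindle motor Kif11 (0.58) rose by less. The call of Ect2 ended without P0 replicate 1, P0 replicate 3 or P3 replicate 1 (adjusted p up to 0.094), and that of Kif11 without any of these or P3 replicate 2 (up to 0.103). The number of G2/M genes called moved with single pools. It was 2 without P0 replicate 1 or P0 replicate 3, 3 without P3 replicate 1, 4 without P3 replicate 2 and 15 without P3 replicate 3, and the median of the list lay between 0.38 and 0.55 in these.

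The mean level of the 29 genes was between 8.92 and 9.28 in the P0 pools and between 9.45 and 9.65 in the P3 pools, so the groups did not overlap. It was not a steady climb, since the P1 pools lay between 8.25 and 8.69, below every P0 pool. Kif14 was at 7.60 at P1 and 8.55 at P2, and Bub1b at 8.99 and 9.67. Of 30 S phase genes 2 rose and none fell, against 2.75% and 3.32% of all genes, with a median of 0.22. Rrm2, a subunit of ribonucleotide reductase, read 9.48, 9.70 and 9.60 at P0 and 9.98, 10.33 and 10.40 at P3 and rose 1.56-fold (adjusted p = 0.00252). Chaf1b (0.68), a chromatin assembly factor subunit, was the other, and its call ended without P0 replicate 3 or P3 replicate 2 (adjusted p up to 0.0696), when 1 S phase gene was left. Of 22 cyclins, Myc genes and inhibitors of cyclin-dependent kinases 1 rose, Ccnd1, and 2 fell, Myc and Cdkn1c, neither of which passed without any 1 of the P0 pools, P2 replicate 1 or 2 or P3 replicate 2. Ccnd2 (0.43), Ccnd3 (-0.16) and Cdkn1b (0.14) did not pass.

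Genes of G2 and M are known to share promoter elements, among them CCAAT boxes and the cell cycle genes homology region (CHR). Promoter sequences of RefSeq (GRCm38.p6), the 250 bases before the start, were searched on both strands, and 7 of the 8 genes that rose had a sequence. A gene was counted if any of its promoters held the motif. All 7 held CCAAT, against 37.5% of all 27025 genes with a sequence. TTTGAA or TTCGAA, the letters of the CHR, were held by 5 of 7, against 19.6%. Among the 25 tested G2/M genes with a sequence, 18 held CCAAT and 11 the letters of the CHR. Neither E2F motif searched, TTTCCCG or TTTGGCG, was found in the 7. A match is a description of letters, not a site. The promoters of the 3 genes that rose with the smallest p are shown, and each holds both. CCAAT (or ATTGG, the same read on the other strand) and the letters of the CHR are in capitals.
Kif14 (chr1:136467598-136467847, plus strand): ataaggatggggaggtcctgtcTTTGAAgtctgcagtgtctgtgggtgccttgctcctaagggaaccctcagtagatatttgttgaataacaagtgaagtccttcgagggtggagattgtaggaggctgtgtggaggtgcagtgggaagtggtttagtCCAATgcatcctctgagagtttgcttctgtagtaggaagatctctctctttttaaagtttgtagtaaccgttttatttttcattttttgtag
Bub1b (chr2:118597961-118598210, plus strand): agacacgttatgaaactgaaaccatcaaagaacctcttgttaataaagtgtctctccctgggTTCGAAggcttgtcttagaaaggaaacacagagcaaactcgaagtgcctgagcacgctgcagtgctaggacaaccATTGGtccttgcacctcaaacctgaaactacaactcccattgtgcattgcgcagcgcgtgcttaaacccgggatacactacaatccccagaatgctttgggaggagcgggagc
Ect2 (chr3:27153879-27154128, minus strand): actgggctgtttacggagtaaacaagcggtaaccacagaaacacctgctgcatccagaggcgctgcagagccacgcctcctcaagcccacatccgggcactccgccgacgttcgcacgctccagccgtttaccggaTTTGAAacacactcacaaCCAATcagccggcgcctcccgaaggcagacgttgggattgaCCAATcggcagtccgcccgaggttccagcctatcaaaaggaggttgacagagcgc
In Kif14 the CHR letters lie 228 and the CCAAT 92 bases before the start, and in Bub1b 188 and 113. In Ect2 the CHR letters lie 114 bases before the start and CCAAT 96 and 55.

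**Figure D4:**
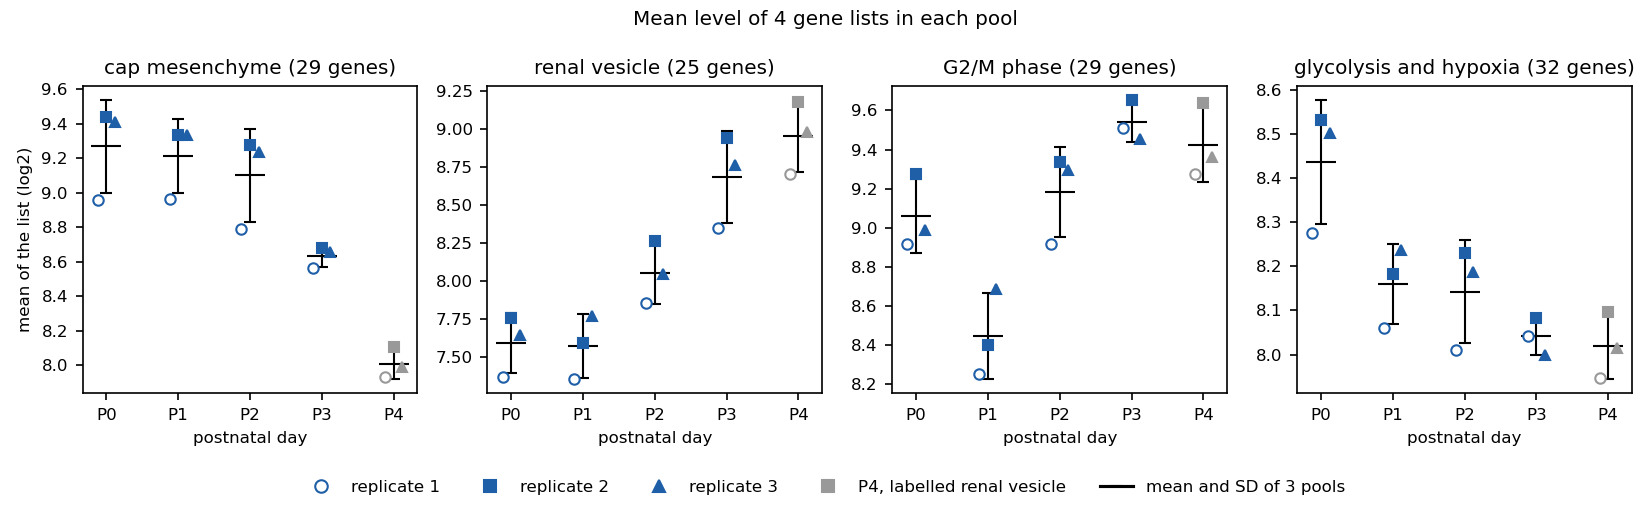
Mean deposited log2 value (vertical axes, each with its own scale) over the members with a probe set (number above each panel) of 4 gene lists in each of the 15 pools by postnatal day (horizontal axes), with open circles, squares and triangles for replicates 1, 2 and 3, grey for P4, and black lines and bars for the mean and SD of 3 pools. The cap mesenchyme list lies between 8.57 and 8.68 in the P3 pools and above 8.95 in the P0 pools, the G2/M list dips at P1, and the glycolysis list drops between P0 and P1.

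Part of the glycolytic enzymes and of the genes induced by low oxygen were lower at P3. Of 29 tested 10 fell and none rose, against 3.32% and 2.75% of all genes, 26 had a difference below 0 and the median was -0.28. Pdk1, a pyruvate dehydrogenase kinase, read 8.31, 8.40 and 8.02 at P0 and 7.12, 6.73 and 6.23 at P3. The groups lay apart, and Pdk1 fell 2.93-fold (-1.55, SE 0.15, limma adjusted p = 9.58e-05). P4ha1, a subunit of collagen prolyl hydroxylase, read 8.97, 9.17 and 8.90 at P0 and 8.01, 7.85 and 7.13 at P3 and fell 2.55-fold (adjusted p = 0.000525). The carbonic anhydrase Car9, a classical hypoxia gene, read 6.78, 7.58 and 6.97 at P0 and 5.99, 5.95 and 6.20 at P3 and fell 2.09-fold, and the liver type phosphofructokinase Pfkl read 7.72, 7.85 and 7.91 at P0 and 6.88, 6.96 and 7.02 at P3 and fell 1.84-fold. The other members that fell, named after their values were seen, were Aldoa (-0.89), Tpi1 (-0.81), Ldha (-0.78), Bnip3 (-0.77), Egln3 (-0.73) and the lactate transporter Slc16a3 (-0.70). Leaving out any 1 of the 12 pools gave between 9 and 11 members lower and none higher. Ldha lost its call without P0 replicate 2 or 3 or P3 replicate 2 or 3 (adjusted p up to 0.112). Other genes of the same response did not pass, among them Slc2a1 (-0.26), Vegfa (0.05) and Ndrg1 (-0.07).

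The mean level of the 32 genes of the glycolysis list with a probe set lay between 8.28 and 8.53 in the P0 pools and at 8.08 or below in the P3 pools. Its largest step was between P0 and P1, where the pools lay between 8.06 and 8.24. The mean of Pdk1 was 8.25 at P0 and 7.64 at P1, and that of P4ha1 was 9.01 and 8.25. The enzymes of the respiratory chain did not move as a group. Of 74 tested 1 passed, the isoform Cox6b2 (-0.69, adjusted p = 0.00574), and the median was -0.04. Of 23 genes of fatty acid oxidation and its regulators 2 rose, Ppargc1b (0.58) and Nrf1 (0.42), and 1 fell, Acadm (-0.61). Each of these 3 calls was lost on leaving out some single pools. Acadm was lost without P0 replicate 1 or 2 (adjusted p up to 0.0769), Ppargc1b without any P0 pool or P3 replicate 1 or 3 (up to 0.105) and Nrf1 without any of 11 pools, all but P3 replicate 1 (up to 0.181).

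The letters ACGTG form the core of the element that hypoxia-inducible factors bind, and they are also part of the E-box CACGTG. In the same promoter sequences ACGTG was present on either strand in 7 of the 10 genes that fell. It was in 21 of the 28 tested members with a sequence, against 18.5% of all genes with a sequence. Pdk1 and Pfkl held none in this window. The promoters of P4ha1, Car9 and Aldoa, those with the smallest p among the members lower at P3 that held it, are shown with the match in capitals, which in all of them reads CACGT, that is ACGTG on the other strand.
P4ha1 (chr10:59323046-59323295, plus strand): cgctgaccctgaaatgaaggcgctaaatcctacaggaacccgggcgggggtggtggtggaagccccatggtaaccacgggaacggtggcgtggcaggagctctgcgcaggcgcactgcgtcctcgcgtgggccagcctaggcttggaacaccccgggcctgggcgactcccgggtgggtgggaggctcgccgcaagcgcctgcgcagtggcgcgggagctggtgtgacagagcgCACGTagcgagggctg
Car9 (chr4:43506776-43507025, plus strand): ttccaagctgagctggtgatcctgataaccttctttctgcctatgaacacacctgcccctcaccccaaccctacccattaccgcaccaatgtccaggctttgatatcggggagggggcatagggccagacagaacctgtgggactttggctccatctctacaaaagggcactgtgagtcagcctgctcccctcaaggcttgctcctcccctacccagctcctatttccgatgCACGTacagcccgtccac
Aldoa (chr7:126799255-126799504, minus strand): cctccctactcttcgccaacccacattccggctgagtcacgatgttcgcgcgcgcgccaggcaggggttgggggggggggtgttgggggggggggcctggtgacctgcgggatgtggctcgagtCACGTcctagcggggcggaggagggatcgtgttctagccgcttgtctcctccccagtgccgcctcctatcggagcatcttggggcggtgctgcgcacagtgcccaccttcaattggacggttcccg
The match lies 16 bases before the start in P4ha1, 18 in Car9 and 126 in Aldoa.

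Laminin chains led the rise among genes of epithelial junctions, polarity and basement membrane. Of these, 5 of 25 rose and none fell, against 2.75% and 3.32% of all genes, with a median of 0.10. Lamc1, the gamma chain shared by most laminins, read 9.58, 10.03 and 9.83 at P0 and 10.44, 11.23 and 11.16 at P3 and rose 2.20-fold (adjusted p = 0.00031). Lamb1 read 9.38, 9.37 and 9.28 at P0 and 10.12, 10.37 and 10.43 at P3 and rose 1.95-fold (adjusted p = 0.000702). Lama4, a laminin alpha chain outside this list and among the largest rises of all genes, went from 8.61 ± 0.19 (SD, n = 3) to 10.64 ± 0.16, a rise of 4.09-fold. Junction genes rose by less, with Marveld2 at 0.66, Dsp at 0.61 (named after its value was seen) and Epcam at 0.47. Without P0 replicate 1, 2 or 3 or P3 replicate 2 the number of the list that rose was 3. The call of Epcam ended without P0 replicate 1 or 2 or P3 replicate 2 (adjusted p up to 0.0654), that of Dsp without any P0 pool or P3 replicate 2 or 3 (up to 0.107), and that of Marveld2 without P0 replicate 3 (0.0787). Cdh1, E-cadherin, differed by 0.20 and did not pass. Epcam was at 8.02 at P4, against 7.31 at P3.

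Of 22 mesenchymal genes 2 fell and 1 rose, against 3.32% and 2.75% of all genes, with a median of -0.05. Zeb1, a repressor of epithelial genes, read 9.36, 10.09 and 9.97 at P0 and 8.41, 8.81 and 8.67 at P3 and fell 2.26-fold (SE 0.11 on the log2 scale, adjusted p = 9.58e-05). Tgfbi, a matrix protein induced by TGF-beta, read 10.06, 10.45 and 10.34 at P0 and 8.76, 8.96 and 8.36 at P3 and fell 3.01-fold. Mmp2 rose by 0.57, a call that ended without P0 replicate 3 (adjusted p = 0.0561). Vim (-0.39), Cdh2 (-0.30), Cdh11 (-0.33), Zeb2 (0.06) and Snai2 (0.33) did not pass. Zeb1 and Tgfbi were at 8.31 and 7.76 at P4.

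Genes of axon guidance, many of which also position cells in the kidney, went both ways. Of 30 tested 7 rose and 2 fell, against 2.75% and 3.32% of all genes, with a median of 0.01. The ephrin receptor Epha4 read 7.60, 7.94 and 7.71 at P0 and 9.38, 9.60 and 9.21 at P3 and rose 3.13-fold (adjusted p = 0.000205), and the ligand Efnb2 read 8.09, 8.21 and 8.19 at P0 and 8.77, 9.26 and 9.25 at P3 and rose 1.91-fold. The semaphorin Sema5a read 7.55, 8.12 and 8.21 at P0 and 8.90, 9.65 and 9.82 at P3 and rose 2.82-fold. Slit2 (0.78) and the receptor Robo1 (0.69), named after their values were seen, rose while Robo2 fell (-1.73). The other gene that fell was the neuropilin Nrp2, at 7.99 or more in the P0 pools and at 7.47, 7.30 and 7.07 at P3 (-0.75, adjusted p = 0.00404), whereas Nrp1 differed by -0.03 and did not pass.

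Imprinted and fetal growth genes are widely switched down as the body stops growing fast after birth. Here 7 of 18 were lower and 1 was higher, against 3.32% and 2.75% of all genes, with a median of -0.37. Zim1, an imprinted zinc finger gene, read 7.99, 7.95 and 7.81 at P0 and 6.14, 6.25 and 5.43 at P3 and fell 3.93-fold (adjusted p = 0.000505). Mest, a paternally expressed gene, read 11.72, 12.02 and 11.89 at P0 and 10.74, 11.17 and 10.90 at P3 and fell 1.92-fold (SE 0.10 on the log2 scale, adjusted p = 2e-04), and Peg3 went from 10.55 ± 0.28 (SD) to 9.61 ± 0.38, a fall of 1.91-fold. Plagl1, a regulator of other imprinted genes, fell 1.70-fold. Peg10 was the member that rose (0.72), a call that ended without P0 replicate 1 or 2 or P3 replicate 2 (adjusted p up to 0.0751). Igf2 differed by 0.44 and Dlk1 by -0.06 and did not pass.

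The microRNA gene Mir335 was among the 15 largest falls. Its probe set, tied to the gene by identifier, read 8.19, 8.11 and 8.33 at P0 and 6.84, 6.65 and 6.13 at P3. The groups were more than 1 unit apart, and the fall was 3.19-fold (-1.67, SE 0.23, limma adjusted p = 0.000931). In RefSeq (GRCm38.p6) the hairpin lies at chr6:30741299-30741396 on the plus strand, inside the span of Mest, and the array does not tell the hairpin from an unspliced transcript around it. The mature microRNAs are shown with their seeds, bases 2 to 8, in capitals, since the seeds of the 2 arms differ.
miR-335-5p: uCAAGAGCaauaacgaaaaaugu
miR-335-3p: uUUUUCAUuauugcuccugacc
Tsga13, also among the 15 largest falls, is a neighbour of Mest. It was at 7.31 ± 0.59 (SD, n = 3) at P0 and read 5.35, 5.23 and 4.59 at P3, below every P0 pool and under 6.86, with a log2 difference of -2.25. Of the 7 tested genes within 250 kb of Mest, by the gene positions of RefSeq, 3 fell (Mest, Mir335 and Tsga13), and Copg2 (-0.40, adjusted p = 0.108), Cep41 (-0.52, adjusted p = 0.0508), Klf14 and Tmem209 did not pass. Of the 5 tested genes within 250 kb of Peg3, Peg3 and Zim1 fell and the other 3, all olfactory receptor genes, did not pass. Around Peg10 and Cdkn1c no neighbour passed. Of 5 tested genes in the window of Peg10 only Peg10 itself passed (higher), and of 7 in that of Cdkn1c only Cdkn1c (lower). These neighbourhoods were looked at after the values were seen.

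The largest falls outside these groups were of diverse function. Ocm, oncomodulin, a small calcium-binding protein, read 7.91, 8.82 and 8.52 at P0 and 5.77, 5.55 and 5.25 at P3 with a log2 difference of -2.90 (SE 0.21, adjusted p = 1.29e-05), its P3 level lying under 6.86. It was at 8.55 at P1 and at 6.44 at P2. The cytokine Il33 read 9.48, 9.75 and 9.60 at P0 and 7.19 ± 0.63 (SD) at P3 and fell 5.34-fold, after standing higher at P1 (10.25) than at P0. Fat3, an atypical cadherin, fell 4.45-fold from 10.68 ± 0.33 (SD) to 8.53 ± 0.57, and its 14 other probe sets all had a difference below 0. Hpgd, which breaks down prostaglandins, fell 4.32-fold, Has2, which makes hyaluronan, 3.12-fold, the Rac exchange factor Dock5 3.02-fold and the Cdc42 effector Cdc42ep3 3.16-fold. Rasef, a Rab family GTPase, fell 3.03-fold, but its other probe set differed by 0.07.

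Crabp2, which carries retinoic acid to its nuclear receptor, read 11.13, 10.98 and 10.91 at P0 and 9.87, 9.44 and 7.46 at P3. The third P3 pool lay 1.98 below the next, and the fall of 2.09 (SE 0.38, adjusted p = 0.00659) did not pass without P0 replicate 3 (0.0603). Of 21 genes of thyroid, steroid and retinoid handling 4 fell and 1 rose, against 3.32% and 2.75% of all genes, with a median of -0.19. The receptor Rara fell by 0.60 (SE 0.10, adjusted p = 0.00355), although its groups overlapped, with the first replicates lowest on both days. Dhrs3 (-0.71), which turns retinal back to retinol, and Rarb (-0.44, named after its value was seen) fell, and Rdh10 (0.52), which makes retinal, rose. The number that fell was 2 without P0 replicate 1 and 1 without P0 replicate 3. Rarb lost its call without any of 11 pools, all but P3 replicate 3 (adjusted p up to 0.229). The call of Dhrs3 ended without P0 replicate 1 or 3 or P3 replicate 3 (adjusted p up to 0.104) and that of Rdh10 without any of 9 pools (P0 replicates 1 and 2, P1 replicates 1 and 2, each P2 pool, P3 replicates 1 and 2), with adjusted p up to 0.184.

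Among the largest rises not yet named, the chaperone clusterin, Clu, read 6.70, 7.61 and 7.52 at P0 and 8.34, 9.72 and 10.04 at P3 and rose 4.26-fold (adjusted p = 3.34e-05). The adaptor subunit Ap1s2 went from 5.94 ± 0.54 (SD), under 6.86, to 8.09 ± 0.42, a log2 difference of 2.16, and was under 6.86 in all P1 pools too. Rnase12 read 6.99, 7.64 and 7.33 at P0 and 9.30, 9.57 and 8.56 at P3 and rose 3.53-fold, and at P4 it was at 7.98. The phosphatase Ptpn13 rose 3.05-fold and the scaffold Cnksr2 3.03-fold, and Ptpn13 was higher still at P4 (9.92).

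Markers of other cells that a sort could hold were counted in the same way. Of 24 stroma and interstitium genes 19 were tested, 7 fell and none rose, against 3.32% and 2.75% of all genes, with a median of -0.36. The mean level of all 24 was between 7.84 and 7.86 in the P0 pools and between 7.22 and 7.64 in the P3 pools. Foxd1, the transcription factor of stromal progenitors, read 9.66, 9.89 and 9.62 at P0 and 8.38, 8.12 and 8.46 at P3 and fell 2.65-fold (adjusted p = 0.000271). Postn fell 3.00-fold, Pdgfra 1.98-fold and Meis2 1.68-fold. Without P0 replicate 1 or P0 replicate 3 the number that fell was 4. The collagens Col1a1 (-0.10), Col1a2 (-0.25) and Col3a1 (-0.12) did not pass. The part of stromal cells in the falls of this comparison was not tested.

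Podocyte genes rose in 2 of 11 tested and fell in 1, against 2.75% and 3.32% of all genes. Dach1 read 7.99, 8.35 and 7.95 at P0 and 8.92, 9.28 and 9.29 at P3 and rose 2.09-fold (adjusted p = 2e-04), and the phospholipase Plce1 rose 2.05-fold. Cdkn1c was lower by 0.59 (adjusted p = 0.0314), a call that ended without any P0 pool, P2 replicate 1 or 2 or P3 replicate 2 or 3 (up to 0.146). In the proximal tubule list 1 of 9 rose, the transcription factor Osr2 (1.10, SE 0.17, adjusted p = 0.002), while Hnf4a (0.12) and Lrp2 (-0.34) did not pass. In the loop of Henle and distal list 2 of 9 rose, Sox9 and Irx3, and 1 fell, Ppp1r1a. Sox9 (0.76) lost its call without P0 replicate 2 or 3 or P3 replicate 2 (adjusted p up to 0.0985), Irx3 (0.48) without any P0 pool, P2 replicate 2 or P3 replicate 1 or 3 (up to 0.127), and Ppp1r1a (-0.44) without any of 9 pools, all but P1 replicates 1 and 2 and P3 replicate 1 (up to 0.174). None of 9 ureteric bud genes passed in limma, and the smallest p were those of Cdh16 (0.24, adjusted p = 0.301) and Aqp2 (0.27, adjusted p = 0.326).

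Most blood and vessel markers were too dim to test or had no probe set in use. Of 14 endothelial, 13 macrophage and 11 erythroid genes, 3 of each list passed the filter. Only 6 of the 11 erythroid genes had a probe set in use, so the others were not measured here. The mean level of the 14 endothelial genes lay between 6.47 and 6.64 at P0 and between 6.50 and 6.61 at P3. Cldn5, a claudin of vessels that epithelia also make, rose 2.52-fold and Ramp2 fell by 1.17, a call that ended without P0 replicate 2 or 3 or P3 replicate 2 (adjusted p up to 0.149). Cd68, a lysosomal protein of macrophages, read 8.15, 8.61 and 8.18 at P0 and 7.11, 7.88 and 7.11 at P3 and fell 1.92-fold (adjusted p = 0.000414), while Cx3cr1 (-0.08) and Tyrobp (0.30) did not pass. Of the erythroid genes Alas2 differed by -0.03 and Slc4a1 by 0.08. Xist differed by 1.59 (SE 1.37, adjusted p = 0.6) and the Y-linked Kdm5d by -0.47 (adjusted p = 0.558).

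Genes of a list of immediate-early and stress genes were lower in 6 of 28, against 3.32% of all genes, and none was higher, with a median of -0.21. Immediate-early genes respond within minutes to growth factors and also to tissue dissociation. Btg2, an antiproliferative gene of this class, read 8.64, 9.38 and 9.65 at P0 and 7.98, 8.06 and 7.05 at P3 and fell 2.89-fold (adjusted p = 0.00475). Zfp36 (-1.06), Egr1 (-0.99), Ccn1 (-0.93) and Ier2 (-0.96, named after its value was seen) were the others beside Myc. The mean level of the 30 members with a probe set was between 7.86 and 8.32 at P0 and between 7.69 and 7.88 at P3, and the groups overlapped. The number that fell was 1 without P0 replicate 3 and 3 without P3 replicate 2 or P3 replicate 3. Zfp36 lost its call without P0 replicate 3 (adjusted p = 0.0668), Egr1 without that pool or P3 replicate 2 or 3 (up to 0.137), Ccn1 without P0 replicate 1 or 3 or P3 replicate 3 (up to 0.132) and Ier2 without P0 replicate 2 or 3, P2 replicate 2 or P3 replicate 2 or 3 (up to 0.129). Fos (-1.03), Fosb (-1.16) and Jun (0.50) did not pass.

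Other groups held few calls, beside shares of 3.32% lower and 2.75% higher over all genes. Of 29 Hox genes 3 fell, with a median of -0.14 and 25 of 29 below 0. They were Hoxd4 (-0.69), Hoxc4 (-0.42) and Hoxa11 (-0.42), of which 0 passed without P0 replicate 3 and 1 without P3 replicate 2, P0 replicates 1 or 2, or the first replicate of P1 or P2. The call of Hoxd4 ended without P0 replicate 3 (adjusted p = 0.0697), and those of Hoxc4 and Hoxa11 without any P0 pool and others (up to 0.146 and 0.168). Of 38 chromatin remodelling genes 4 fell and 1 rose. Phf19 and Dpf3 (-0.61), both also cap mesenchyme genes, Chd3 (-0.52) and Ezh1 (-0.59, named after its value was seen) fell, and Jarid2 rose (0.50). Without P0 replicate 1, P0 replicate 3 or P3 replicate 2 the number that fell was 2, Chd3 being lost in each (up to 0.0775) and Ezh1 also without P1 replicate 1, P3 replicate 3, or the second replicate of P0 or P2 (up to 0.127), and Jarid2 was lost without P0 replicate 1 or P3 replicate 2 (up to 0.0772).

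Of 20 apoptosis genes the survival factor Bcl2 (-0.65) and its antagonist Bcl2l11 (-0.65) fell and Casp8 was higher (0.67). The shares of all genes, for this list and those that follow, were 3.32% lower and 2.75% higher. Bcl2l11 passed in every fit that left out 1 pool (adjusted p up to 0.0465), Bcl2 was lost without P0 replicate 3 or P3 replicate 2 (up to 0.085), and Casp8 without any of 10 pools, all but P1 replicate 3 and P3 replicate 3 (up to 0.231). Of 24 IGF and mTOR pathway genes 1 rose, Igfbp4 (0.54), a call that ended without P0 replicate 1 or 3 (up to 0.0657). Of 19 interstitial matrix genes 3 fell, Postn, Dcn (-0.92) and Tnc (-0.43), and only Postn passed without any 1 of the P0 pools (Dcn up to 0.112). Tnc was also lost without 7 further pools, P1 replicates 1 and 2, each P2 pool and P3 replicates 2 and 3 (up to 0.144). None of 8 interferon genes passed in limma, and all 8 lay below 0, Ifitm3 at -0.25 (adjusted p = 0.26) and Ifi27 at -0.24 (adjusted p = 0.266). None of 18 replication-dependent histone genes passed, with H2bc9 at 0.43 (adjusted p = 0.059) and H1f2 at -0.64 (adjusted p = 0.0672).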

How the data were processed

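Per the labels, pools of sorted kidney cells were amplified once with the WT-Ovation Pico kit and hybridised to Affymetrix arrays. The authors deposited 1 table of log2 values of 15 samples over 35557 probe sets. The submitters' processing notes name Affymetrix Expression Console, and the sources used here state neither its version nor the summarization. Values lay between 2.38 and 13.76, array medians between 6.80 and 6.92, and they were used as deposited. Precision is limited by the number of arrays.

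Of the probe sets, 21789 had 1 gene symbol in the platform table, 1621 had several and 12147 were not listed. Only the first entered, 21698 matched a current gene by identifier, and for the 999 of 19938 genes with several the one with the highest mean was used. Of 19 other probe sets of named genes 18 had a difference in the same direction. Genes above 6.86 in at least 3 of the 12 pools of P0 to P3 were kept (11617).

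With limma 3.58.1 in R 4.3.3, a mean for each of 4 days and the replicate number of the title were fitted to these 12 pools (lmFit, eBayes, two-sided, Benjamini-Hochberg over all genes kept, threshold 0.05). A title without a number was taken as replicate 1. The deviations of same-numbered pools from their day means correlated above 0.1 in 18 of 18 pairs (lowest 0.14), against 11 of 36 pairs of different numbers. Those 11 were all between replicates 2 and 3. P0 replicate 2 correlated at 0.67 with P1 replicate 3 and at 0.14 with P1 replicate 2. The correlations thus set the first replicates apart but do not show that numbers 2 and 3 pair the pools, which the block assumes. The fit was also run on simulated data with independent noise and a replicate effect built in. That run cannot tell whether numbers 2 and 3 pair the pools. A fold is the log2 difference without its sign, taken back to the linear scale.

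The members, the 34 gene lists and the rules were chosen with earlier results of these data known, so lists are given by counts and medians with no test. The genes named are Crym, Six2, Cited1, Eya1, Wnt4, Lhx1, Pax8 and Jag1, the 15 largest rises and falls that passed and moved the same way in all 3 pairs (leaving out clone, Rik, Gm and LOC names), and up to 4 members of each list with the smallest p that passed (2 where none did), with up to 2 that passed in the opposite direction. Members given as not passing, and others where the text says so, were chosen after their values were seen. Alternatives were the fit without the block, a block for the first replicates only, other sample sets, normalizations, filters and weights, and leaving out each of the 12 pools.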

Additional observations from a re-analysis of the deposited data

How the results depend on the processing

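Without the replicate block 200 genes were called (103 higher, 97 lower), all 200 of which were also called with it. With only the 6 pools of P0 and P3 the numbers were 268 (126 higher, 142 lower), with replicates 2 and 3 of each day 328 (137 and 191), and with array weights 1356 (705 and 651), a fit that gave a convergence warning. Leaving out 1 pool gave between 339 and 744 genes, between 161 and 365 higher and between 178 and 447 lower. The lowest of each was without P0 replicate 3, and the numbers also fell by over 1.5 times in all without P0 replicate 1 (399) and P3 replicate 2 (464) and among the genes lower without P0 replicate 2 (204). These fits use fewer pools, and the cause of the other shifts was not tested. The other settings (a block for the first replicates, all 15 samples, quantile normalization, median centring, other filters, the mean of probe sets, an intensity trend) stayed within 1.5 times. With a block for the first replicates, Egr1 (limma adjusted p = 0.0514), Tmem100 (0.0692), Ppp1r1a (0.0634) and Hoxc4 (0.099) did not pass. Neither did Ier2 (0.0631) and Ezh1 (0.0656), and the immediate-early and stress list had 4 lower. Without the block the cap mesenchyme list had 9 lower, the renal vesicle list 11 higher, the Notch list 2 higher, the G2/M list 2 higher and the glycolysis list 6 lower, and the G2/M list had 1 higher with replicates 2 and 3, 2 with 6 pools, 19 with quantile normalization and 25 with array weights.

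Of the 114 named genes that passed, 73 passed in every fit that left out 1 pool, 62 without the block, 74 with 6 pools, 77 with replicates 2 and 3, and 53 under every setting, and of 21 further genes that passed and were named after their values were seen 13 passed in every fit that left out 1 pool. Of the genes whose call held on leaving out any 1 pool, those that did not pass without the block were Pax8 (adjusted p = 0.114), Hey1 (0.298), Hey2 (0.0811), Eya1 (0.139), Traf1 (0.0596), Sfrp2 (0.059), Lamc1 (0.0668), Peg3 (0.118), Osr2 (0.12), Cd68 (0.0732), Cox6b2 (0.211), Sema5a (0.0581), Btg2 (0.0596), Bub1b (0.139), Rara (0.668), Dpf3 (0.231), Bcl2l11 (0.111), Notch1 (0.173), Notch2 (0.486), Robo1 (0.301), Tpi1 (0.331), Bnip3 (0.0641) and Slc16a3 (0.0683). With replicates 2 and 3 alone those were Plce1 (0.123), Pdgfra (0.0979), Bub1b (0.0555), Plagl1 (0.0536), Rara (0.0888), Bcl2l11 (0.137), Egln3 (0.101) and Sp5 (0.0934), with 6 pools Btg2, Rara, Bcl2l11, Dpf3, Egln3, Fzd7, Notch2, Slc16a3 and Sp5 (0.0507 to 0.0941), and with all 15 samples Eya1. The sign turned only in 3 genes that did not pass in the main setting. Slc4a1 (0.08) was at -0.0555 with array weights and between -0.0473 and 0.145 on leaving out 1 pool. Alas2 (-0.03) was at 0.145 with replicates 2 and 3, at 0.223 with array weights and between -0.276 and 0.141 on leaving out 1 pool. Xist (1.59) was at -0.49 with replicates 2 and 3 and between -0.58 (without P0 replicate 1) and 3.26 (without P0 replicate 2) on leaving out 1 pool.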

Other observations

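Some genes that differed between P3 and P0 did not go on in the same direction at P4, for which no test was made. Rnase12 was at 9.14 ± 0.52 (SD, n = 3) at P3 and 7.98 at P4, Hey2 at 8.31 and 7.14, Bmp2 at 10.03 and 9.37, and Peg10 at 9.12 and 7.78. Ccn1, lower at P3, was at 8.28 ± 0.55 at P3 and 9.53 at P4. For other genes the P4 mean lay further from P3, as for Sox9 (8.36 and 9.57), Osr2 (7.94 and 9.04), Cdh16 (7.20 and 8.40) and Eya1 (10.29 and 8.68).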
